A study of Arabidopsis thaliana with 40 samples.

Results

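Heat shock proteins are chaperones that bind unfolded proteins, and plants make most of them on heating. In *Arabidopsis thaliana* heat shock factors switch their genes on by binding heat shock elements, short runs of alternating GAA and TTC units before the coding sequence. The master factors of class A1 are present without heat, whereas *HSFA2*, itself a heat shock target, keeps the response going after a first heating. The 10 genes described here are *HSFA2* and 9 chaperone genes of its response, chosen by gene identifier from the 33602 genes counted in each library. Beside *HSFA2* (AT2G26150), they are the HSP100 disaggregase gene *HSP101* (AT1G74310) and the heat-inducible cytosolic *HSP90.1* (AT5G52640) and *HSP70-4* (AT3G12580). The others code for small heat shock proteins: *HSP18.2* (AT5G59720), *HSP17.4* (AT3G46230) and *HSP17.6C* (AT1G53540) of class I, the class II *HSP17.6* (AT5G12020), the chloroplast *HSP21* (AT4G27670) and the mitochondrial *HSP23.6* (AT4G25200).

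The RNA-seq data comprised 12 libraries of whole Col-0 seedlings, 3 each of wild type (wt), *ubp12* (*ubp12-1*), *ubp13* (*ubp13-3*) and the double mutant *ubp12/13* (*ubp12-1 ubp13-3*). UBP12 and UBP13 are ubiquitin-specific proteases that remove ubiquitin from histone H2A, among other proteins. Seedlings grew for 15 days on half-strength MS medium in long days, with no heat treatment named, and were harvested 6 to 8 h after the lights came on. Each genotype is 1 T-DNA insertion allele or allele pair, *ubp13-3* is a weak allele, and the double mutant is stunted and sterile. Its line is therefore propagated through plants heterozygous for *ubp13-3*, and the authors state that homozygotes were picked by genotyping and checked by phenotype. In the libraries labelled *ubp12*, *UBP12* was at 25.6 ± 2.12 CPM (counts scaled to a common library size; SD, n = 3) against 99.0 ± 2.87 in wt, and in *ubp12/13* it was at 32.5 ± 4.75. *UBP13* was higher than in wt in the libraries labelled *ubp13* (158 ± 11.5 against 63.1 ± 0.499) and at 79.1 ± 1.60 in *ubp12/13*; a count over the whole gene does not show whether an insertion breaks the transcript, so *ubp13* here means the libraries with that label.

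Library totals ranged from 6545534 to 15225396 nuclear counts. Chloroplast and mitochondrial genes took 6.15% of the counts in wt replicate 3 and between 0.268% and 1.52% in the other libraries, and they were left out. The 4 leaf marker genes summed to between 50000 and 58317 CPM in wt and 37649 to 44910 in *ubp12/13*, lower in every double mutant library. Of the 4 root markers, *TIP2;3*, *COBL9* and *EXPA7* were at 0 in wt and *ubp12*. In *ubp13* and *ubp12/13* each had no more than 3 counts over the group. *PYK10* carried the sum in every genotype, with means from 129 to 160 CPM. Root tissue was thus hardly seen by the markers other than *PYK10*, although the libraries are of whole seedlings. In whole seedlings, fewer cells of a type and less RNA per cell cannot be told apart.

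The sequences below show, for each of the 10 genes, the 30 bases around its longest heat shock element within 500 bases before the start codon. They are printed because heat shock factors bind elements of this kind. The search used GAANNTTC and TTCNNGAA, each its own reverse complement, and joined matches that share a unit. Capitals mark the element, and coordinates are those of the TAIR10.1 assembly of RefSeq.
HSFA2: attagtaacGAAGTTTCTGGAAcattgtct (chr2:11135527-11135556, plus strand)
HSP90.1: aaacgaaaaGAACTTTCTGGAAttcgtttg (chr5:21352253-21352282, plus strand)
HSP70-4: tttactcgtGAACGTTCTCGAAagctcttt (chr3:3993846-3993875, minus strand)
HSP18.2: tcaacaaacGAAACTTCCTGAAatgccaag (chr5:24062387-24062416, plus strand)
HSP17.4: aagaaacctGAAATTTCAAGAAacttgcag (chr3:16984865-16984894, minus strand)
HSP17.6C: tcaacaccaGAAACTTCTTGAAagcacctg (chr1:19980237-19980266, plus strand)
HSP101: ataaaataagcGAAAATTCcacgtgacatc (chr1:27940322-27940351, minus strand)
HSP17.6 class II: gaccaagacgtTTCTCGAAcaatacggaag (chr5:3883035-3883064, minus strand)
HSP21: actcagaactaGAATTTTCtaatcttcact (chr4:13819927-13819956, minus strand)
HSP23.6: ccacttctccaGAACATTCactcactgaca (chr4:12916928-12916957, plus strand)

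All 10 genes held at least 1 element of 2 units, against 33.9% of 27443 protein-coding genes in the same window. An element of 3 units stood before *HSFA2*, *HSP90.1*, *HSP70-4*, *HSP18.2*, *HSP17.4* and *HSP17.6C*, 6 of the 10, against 1.20% of all genes. The window of *HSP101* lay wholly within its annotated leader, so no sequence upstream of that gene's start was searched. The elements shown ended between 42 (*HSP21*) and 470 (*HSP101*) bases before the start codon. Those of *HSFA2*, *HSP90.1*, *HSP17.4* and *HSP17.6C* began upstream of the annotated gene start, and the others lay in the annotated leader; the annotation of *HSP90.1* begins at its first coding base. A match of letters is not a bound site.

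Without heat, these genes were low in all genotypes (see the plot of levels by library). In wt, per kilobase of exon, *HSP70-4* was the highest at 5.41 CPM per kb (range 4.36 to 6.66), *HSP90.1* followed at 3.39 (3.26 to 3.58) and *HSP101* at 2.01 (1.76 to 2.30). *HSP18.2* came next at 1.32, *HSP17.4* at 0.991 and *HSFA2* at 0.509 CPM per kb. *HSP70-4*, *HSP90.1* and *HSP101* each lay above the next gene of this order in all wt libraries, and from *HSP18.2* downwards neighbours overlapped. In *ubp12/13* the order of the first 4 was the same, with *HSP70-4* at 16.2 (11.9 to 21.5) and *HSP90.1* at 9.02 (7.74 to 10.4) CPM per kb, so that both stood clear of *HSP101* at 2.46 (2.05 to 2.78).

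**Figure D1:**
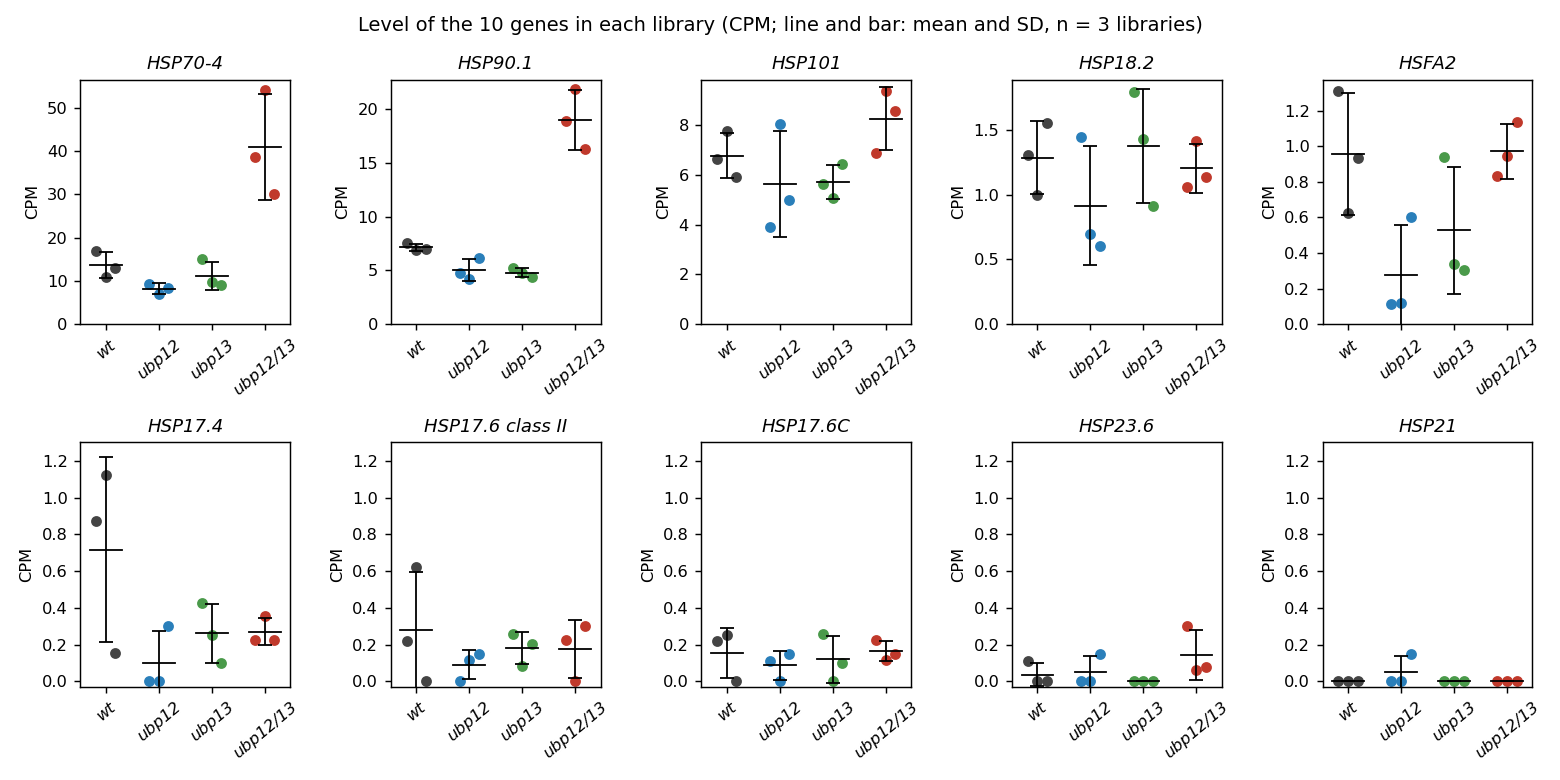
Level of each of the 10 genes in the 12 libraries, in CPM on TMM-scaled totals (vertical axis; scales differ between the upper panels and are common to the lower ones), by genotype. Points are libraries, and lines and bars are the mean and SD of 3 libraries, cut off at the lower axis. The *ubp12/13* libraries lay above all others for *HSP70-4* (30.0 to 54.1 CPM) and *HSP90.1* (16.3 to 21.8 CPM), and the genes of the lower row stayed at or below 1.12 CPM.

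The heat-inducible cytosolic *HSP90.1* and *HSP70-4* were higher in the double mutant than in any other genotype. HSP90 proteins mature client proteins such as kinases and receptors, and hold heat shock factors inactive in unstressed cells. *HSP90.1* (chr5:21352557-21355147) was at 7.52, 6.87 and 7.01 CPM in wt replicates 1 to 3 and at 18.8, 21.8 and 16.3 CPM in those of *ubp12/13*. It was at 4.79, 4.19 and 6.18 CPM in *ubp12* and at 5.21, 4.80 and 4.38 CPM in *ubp13*. The double mutant was thus high in all 3 libraries with no overlap with wt, and all 6 single mutant libraries lay below the lowest wt library.

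Against wt, *HSP90.1* was 2.64-fold higher in *ubp12/13* (log2FC 1.40 ± 0.14 SE; Benjamini-Hochberg adjusted p = 2.6e-04 in the quasi-likelihood test of edgeR). Neither single mutant showed this rise. The log2FC of *ubp12* against wt was -0.51 ± 0.19 (adjusted p = 0.218). That of *ubp13* against wt was -0.58 ± 0.16 (adjusted p = 0.716). The double mutant was also above each single mutant, by 1.91 ± 0.17 against *ubp12* (adjusted p = 1.8e-04) and 1.97 ± 0.14 against *ubp13* (adjusted p = 5.8e-05) on the log2 scale.

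HSP70 proteins bind unfolded stretches of other proteins and pass clients on to HSP90. *HSP70-4* (chr3:3991117-3993886) was at 16.8, 11.0 and 13.1 CPM in wt and at 38.7, 54.1 and 30.0 CPM in *ubp12/13*. It was at 9.35, 6.86 and 8.44 CPM in *ubp12* and at 14.9, 9.68 and 8.96 CPM in *ubp13*. Every double mutant library lay above every library of the other genotypes, the *ubp12* libraries lay below those of wt, and the *ubp13* libraries overlapped with both.

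Against wt, *HSP70-4* was 2.98-fold higher in *ubp12/13* (log2FC 1.57 ± 0.23, adjusted p = 0.00147). Its log2FC was -0.73 ± 0.19 in *ubp12* (adjusted p = 0.0853) and -0.29 ± 0.22 in *ubp13* (adjusted p = 0.879), and neither passed the test. With no filter on low counts, the adjusted p in *ubp12* was 0.0354 at a log2FC of -0.73, short of the change of 1 that a call required. The value in *ubp13* moved to -0.10 without wt replicate 1, -0.55 without *ubp13* replicate 1, -0.19 without *ubp13* replicate 2 and -0.17 without *ubp13* replicate 3. Against the single mutants the difference was 2.30 ± 0.23 (*ubp12*, adjusted p = 3.1e-04) and 1.86 ± 0.25 (*ubp13*, adjusted p = 8.5e-04). These comparisons share libraries, so their values are not independent of one another. Leaving out *ubp12/13* replicate 2, the highest library of both genes, gave a log2FC against wt of 1.32 for *HSP70-4* and 1.29 for *HSP90.1*, and without wt replicate 3 the values were 1.55 and 1.39; both genes stayed called.

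A call required an adjusted p under 0.05 together with a change of at least 1 on the log2 scale, in either direction. Of the 10 genes, 5 passed the filter on low counts in *ubp12/13* against wt, which asked for 2 or more of the 6 libraries above 1 CPM, and *HSP90.1* and *HSP70-4* were the 2 called, both higher. Of all 17916 genes tested, 5.94% were called higher in this comparison. For *HSP90.1* and *HSP70-4* the libraries of both genotypes did not overlap, as with the double mutant higher in 24.1% of all genes tested. In the comparisons with the single mutants *HSFA2* passed the filter through its double mutant libraries alone, so that only a higher level there could bring it into the test, and it is left out of the counts that follow. Compared with *ubp12*, *HSP90.1* and *HSP70-4* were called higher, 2 of the other 4 genes tested, where 4.10% of 17890 genes were, and neither overlapped, as in 22.5%. Compared with *ubp13* the same 2 of 4 were called higher, where 5.90% of 17821 genes were; these 2 and *HSP101* did not overlap, as in 24.8%.

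**Figure D2:**
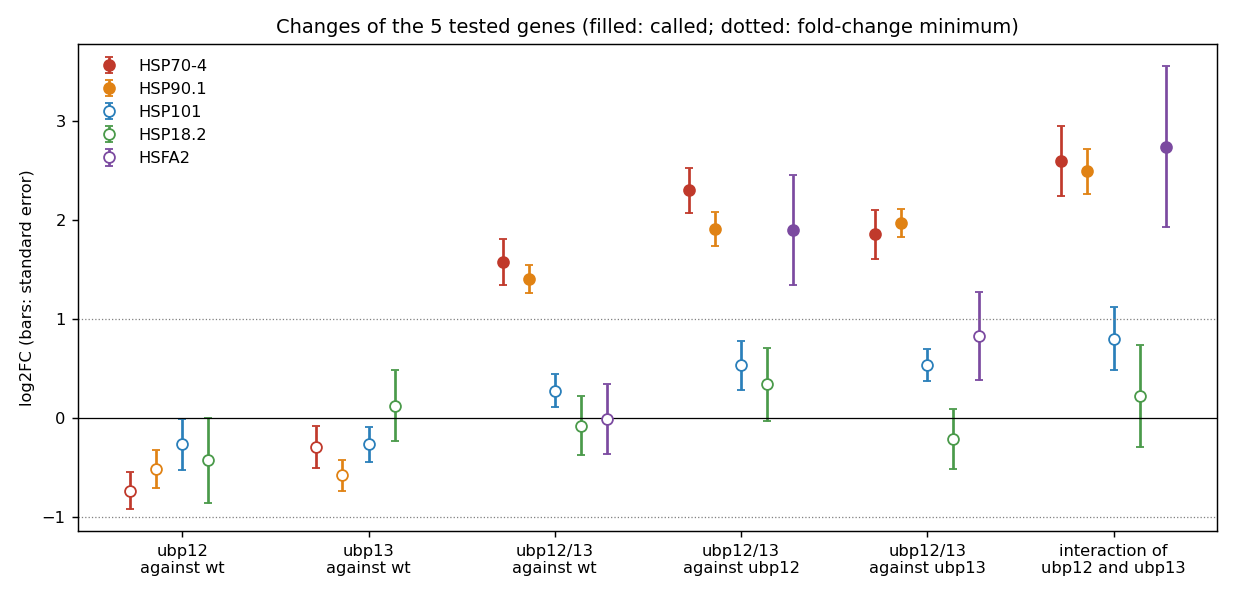
log2FC of the 5 genes that passed the filter (vertical axis; bars are standard errors) in the 5 comparisons between genotypes and in the interaction of both mutations. Filled points were called, and dotted lines mark the fold-change minimum. *HSP70-4* and *HSP90.1* lay below 0 in both single mutants, uncalled, and above 1 in each comparison of the double mutant.

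In the single mutants none of the 10 genes was called. The count was 0 of 4 tested in *ubp12* against wt, where edgeR called 0.683% of 17712 genes, and *HSP90.1* and *HSP70-4* had an unadjusted p under 0.05. It was 0 of 4 in *ubp13* against wt, where 0.0284% of 17615 genes were called and *HSP90.1* had an unadjusted p of 0.0043. DESeq2 called none of them either. The medians of the 4 tested genes were -0.47 in *ubp12* and -0.28 in *ubp13* on the log2 scale, against -0.00 over all genes tested in both. In *ubp12* the groups of *HSP90.1* and *HSP70-4* did not overlap with wt, both lower, as in 10.3% of all genes tested; in *ubp13* that held for *HSP90.1*, against 5.38%.

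Whether the log2FC of the double mutant equals those of the single mutants added together was tested as an interaction over the 12 libraries. *HSP70-4* (2.60 ± 0.36, adjusted p = 4.1e-04), *HSP90.1* (2.49 ± 0.23, adjusted p = 3.2e-05) and *HSFA2* (2.74 ± 0.81, adjusted p = 0.0383) were called, each with a positive term. The call of *HSFA2* was lost when any 1 library was left out other than *ubp12* replicate 3, *ubp13* replicate 1 or wt replicate 2 (2.35 to 2.82, adjusted p from 0.0551 to 0.0992). Of the 5 tested genes, *HSFA2* passed the filter through wt and *ubp12/13* libraries alone, and both groups enter the term with a plus sign. It is therefore left out of the count here. Of the remaining tested genes *HSP70-4* and *HSP90.1* were called, where 3.23% of 18212 genes were called with a positive term. Over all 12 libraries, the log2 CPM of *HSP90.1* and *HSP70-4* had a Pearson r of 0.956 with each other, and of 0.714 once each library was taken as its difference from its genotype's mean. The 2 genes share libraries and depth in this description.

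*HSFA2* (chr2:11135624-11137792), the heat shock factor, was near the limit of detection, with 89 counts over all libraries. It was at 1.31, 0.624 and 0.935 CPM in wt and at 0.832, 0.946 and 1.14 CPM in *ubp12/13*. In *ubp12* it was at 0.111, 0.116 and 0.603 CPM, 6 counts in all, and in *ubp13* at 0.940, 0.337 and 0.305 CPM. The double mutant overlapped with wt, and *ubp12* was the genotype with the lowest mean.

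The log2FC of *HSFA2* was -0.01 ± 0.35 in *ubp12/13* against wt (adjusted p = 0.992), a value whose sign turned with the scaling. Against *ubp12* it was called higher, at 1.90 ± 0.56 (adjusted p = 0.0358), and against *ubp13* it was at 0.83 ± 0.44 (adjusted p = 0.185), but called without *ubp13* replicate 1 (1.55, adjusted p = 0.0348). Without *ubp12* replicate 3 the value against *ubp12* was 2.97. It entered these fits against the single mutants only through its level in the double mutant. The call against *ubp12* was lost with DESeq2 (adjusted p = 0.0899), with counts thinned to the smallest library (0.0643), and without *ubp12* replicate 1 (0.126), *ubp12* replicate 2 (0.122) or *ubp12/13* replicate 1 (0.0646). In the 2 comparisons of a single mutant with wt it did not pass the filter.

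*HSP101* pulls apart aggregated proteins and is required for acquired heat tolerance. It was at 6.65, 7.74 and 5.92 CPM in wt, at 3.90, 8.03 and 4.98 CPM in *ubp12*, at 5.64, 5.05 and 6.41 CPM in *ubp13* and at 6.88, 9.35 and 8.55 CPM in *ubp12/13*. The libraries of *ubp12/13* overlapped with those of wt and *ubp12* and lay above those of *ubp13*. The log2FC of the double mutant was 0.28 ± 0.17 against wt (adjusted p = 0.241), 0.54 ± 0.25 against *ubp12* (adjusted p = 0.146) and 0.54 ± 0.16 against *ubp13* (adjusted p = 0.0320, under the fold-change minimum). In contrast to *HSP90.1* and *HSP70-4*, it was therefore called in none of these comparisons. Against wt the value was 0.18 without *ubp12/13* replicate 2, and against *ubp12* it was 0.31 without *ubp12* replicate 1 and 0.90 without *ubp12* replicate 2 (adjusted p = 0.0250). Without *ubp12* replicate 2 its interaction term was called (1.17, adjusted p = 0.0153). Its annotated end overlaps *AT1G74300* on the opposite strand, and reads of overlapping genes cannot be told apart where the counting used no strand.

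Small heat shock proteins hold unfolded proteins in a state from which HSP70 and HSP101 can refold them, and they are mostly silent without heat or seed maturation. *HSP18.2* was the only small heat shock protein gene of the 10 to pass the filter, in all comparisons. It was at 1.31, 0.999 and 1.56 CPM in wt, at 1.45, 0.698 and 0.603 CPM in *ubp12*, at 1.79, 1.43 and 0.916 CPM in *ubp13* and at 1.06, 1.42 and 1.14 CPM in *ubp12/13*. All genotypes overlapped. Its log2FC in *ubp12/13* against wt was -0.08 ± 0.30 (adjusted p = 0.903), with a sign that turned with the scaling.

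The other 5 small heat shock protein genes did not pass the filter in any comparison. *HSP17.4* had 8, 9 and 1 counts in wt, 0, 0 and 2 in *ubp12*, 5, 3 and 1 in *ubp13* and 3, 6 and 3 in *ubp12/13*. It reached 1.12 CPM in wt replicate 2 and stayed at or below 0.427 CPM in all mutant libraries, with wt replicate 3 within the range of the mutants. The antisense gene *AT3G07365* lies within *HSP17.4*, and *AT3G46220* overlaps its end, on the other strand. Over the 3 libraries of each group, the ratio of wt to *ubp12* was 9.23 for *HSP17.4* (18 against 2 counts, exact 95% counting interval of 2.21 to 82.0). The ratio of wt to *ubp13* was 2.83 (1.21 to 7.15) and that of wt to *ubp12/13* was 2.75 (1.26 to 6.27). These intervals lie above 1 but cover counting error only, not the spread between libraries.

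*HSP17.6C* had 17 counts over the 12 libraries and the class II *HSP17.6* had 22, with no library of either above 5 counts. *HSP23.6* had 8 counts, 6 of them in *ubp12/13* (4, 1 and 1), 1 in wt, 1 in *ubp12* and 0 in *ubp13*. For *HSP23.6* the ratio of *ubp12/13* to wt was 3.27, with an exact counting interval (95%) of 0.396 to 150, with the same limit. *HSP21* had 1 count, in *ubp12* replicate 3. A count of 0 in the 3 *ubp12/13* libraries allows a level of *HSP21* of up to 0.0692 CPM, and in wt of up to 0.127 CPM (3 counts over the group). With no filter on low counts, edgeR called none of these 5 genes in 27 tests, and 3 of the tests had an unadjusted p under 0.05, all of *HSP17.4*. Those were *ubp12* against wt (adjusted p = 0.156), *ubp12/13* against wt (adjusted p = 0.129) and the interaction (adjusted p = 0.153).

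A second experiment measured monoubiquitinated H2A (H2Aub1) by ChIP-seq in rosette leaves of wt and *ubp12/13* plants grown for 15 days on medium and 2 weeks on soil, and 1285 peaks of H2Aub1 increase in the double mutant were given. The peaks overlapped the first 1 kb of 3 of the 10 genes, all of them small heat shock protein genes, against 982 of 27444 protein-coding genes (3.58%). Of the related genes in the lists described below, only heat shock factor genes had such an overlap. In the same region, peaks overlapped 0 of 12 other small heat shock protein genes and 0 of 23 other HSP70, HSP90 and HSP100 genes. They overlapped 0 of 23 co-chaperone and other heat response genes and 2 of 20 other heat shock factor genes. At *HSP23.6* the peak spanned chr4:12914935-12918006 (3072 bp), at *HSP21* chr4:13818915-13820149 (1235 bp) and at the class II *HSP17.6* chr5:3882329-3883149 (821 bp). Each covered the gene start, and that of *HSP23.6* reached furthest upstream. With peaks of at least 1000 bp alone, 2 of the 10 remained.

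The 3 overlapped genes were among the 4 with the fewest counts in seedlings. Neither of the 2 genes called higher in the double mutant was overlapped, and the nearest peak of increase was 33913 bp from *HSP70-4* and 55606 bp from *HSP90.1*. Both distances lay within the 9230 to 117257 bp of the genes without an overlapping peak. Loss of H2Aub1 was not examined. For *HSFA2* the nearest peak was 33067 bp away. The leaf and seedling samples differ in age and tissue, and the peak list gives positions without heights.

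**Figure D3:**
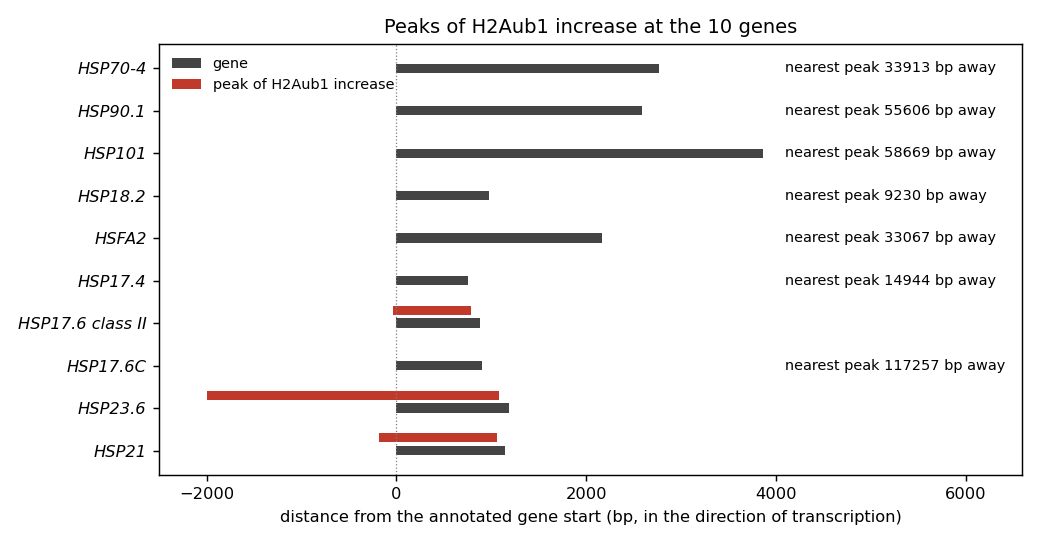
Position of the peaks of H2Aub1 increase (red) at the 10 genes (dark bars, annotated gene length), as distance in bp from the annotated gene start in the direction of transcription. Peaks overlapped *HSP17.6 class II*, *HSP23.6* and *HSP21*; for the other 7 genes the distance to the nearest peak is written, from 9230 bp (*HSP18.2*) to 117257 bp (*HSP17.6C*).

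Among 4 lists of related genes in *ubp12/13* against wt, most calls were of higher levels. Of 23 other HSP70, HSP90 and HSP100 chaperone genes, 22 were tested and none was called by edgeR or DESeq2, 7 having an unadjusted p under 0.05, with a median log2FC of 0.14 against -0.00 over all genes tested. The constitutive cytosolic relatives of *HSP90.1* were *HSP90.2* (log2FC 0.32, adjusted p = 0.175), *HSP90.3* (0.56, adjusted p = 0.0155) and *HSP90.4* (0.28, adjusted p = 0.152), all under the fold-change minimum. Those of *HSP70-4* were *HSC70-1*, at 838 CPM in wt and 901 CPM in *ubp12/13* (log2FC 0.10, adjusted p = 0.513), *HSC70-2* (-0.07, adjusted p = 0.857) and *AT3G09440* (0.73, adjusted p = 0.0311). *HSP70-5*, a further HSP70 gene, was at -0.24 (adjusted p = 0.345). These relatives were chosen for their families after their values were seen.

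Among 12 other small heat shock protein genes, 8 were tested and 2 were called, both higher, where 5.94% of all genes tested were called higher; 6 of the 8 had an unadjusted p under 0.05, and the list median was 0.63. *AT5G47590* rose from 1.08 ± 0.404 CPM in wt to 7.23 ± 0.973 in *ubp12/13* (log2FC 2.75 ± 0.26, adjusted p = 2.0e-04), and *AT5G51440* from 1.53 ± 0.601 to 5.68 ± 0.336 (1.85 ± 0.25, adjusted p = 9.6e-04). Both code for HSP20-like proteins. In *ubp12* against wt the log2FC was 1.22 ± 0.41 for *AT5G47590* (adjusted p = 0.18) and -0.17 ± 0.44 for *AT5G51440* (adjusted p = 0.714), both uncalled. Against both single mutants another gene of the list, *AT2G29500*, was called higher too, at 1.45 against *ubp12* and 1.21 against *ubp13*.

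Of 20 other heat shock factor genes, 14 were tested, 4 were called higher and 1 lower, against 5.94% and 4.02% of all genes tested. Of the 14, 7 had an unadjusted p under 0.05, and the median was 0.31. *HSFA4A*, a class A factor of oxidative stress responses, rose from 13.4 ± 2.65 to 49.2 ± 7.27 CPM (log2FC 1.88 ± 0.17, adjusted p = 1.4e-04). *HSFA3*, which acts below the DREB2 factors, rose by 1.45 ± 0.36 (adjusted p = 0.0169) and *HSFA8* rose 2.27-fold (adjusted p = 0.0152). *HSFA6A* had 3 counts in wt, all in replicate 3, and 65 in *ubp12/13*, a ratio of 11.8 with a counting interval of 3.86 to 58.7 (adjusted p = 0.0137). It passed the filter only through *ubp12/13*, so that 3 genes were called higher beside it, and its log2FC of 3.41 moved to 7.17 without wt replicate 3 (wt is then at 0 counts and the fitted value is no bound) and 2.75 without wt replicate 1. *HSFA7A*, which like *HSFA2* is a heat shock target, fell from 1.66 ± 0.283 to 0.460 ± 0.152 CPM (log2FC -1.85 ± 0.35, adjusted p = 0.00467). In *ubp12* against wt its log2FC was -1.99 ± 0.58 (adjusted p = 0.125) and that of *HSFA8* was 0.98 ± 0.24 (adjusted p = 0.0745). There *HSFA4A* was at 0.61 (adjusted p = 0.202) and *HSFA3* at 0.52 (adjusted p = 0.542), and none of them was called. *HSFA3* and *HSFA8* lost the call without wt replicate 1 (1.24 and 0.90), wt replicate 3 (1.39 and 1.17) or *ubp12/13* replicate 1 (1.24 and 1.06).

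Of 23 co-chaperone and other heat response genes, 22 were tested and 2 were called, both higher, near the share of 5.94% called higher among all genes; 11 had an unadjusted p under 0.05, and the median was 0.11. They were *DREB2C* (log2FC 1.86 ± 0.46, adjusted p = 0.0157) and *DREB2B* (1.39 ± 0.28, adjusted p = 0.00686), factors of the drought and heat responses. *DREB2C* lost the call without wt replicate 3 (1.72) or *ubp12/13* replicate 1 (1.73), and was at 2.82 without wt replicate 2. *DREB2A*, which drives *HSFA3* under heat, was at 0.80 ± 0.22 against wt (adjusted p = 0.0257) and was called higher against *ubp12* (1.25) and *ubp13* (1.41). *MBF1C*, a heat-induced coactivator, was at 8.25 ± 0.687 CPM in wt and 7.97 ± 1.81 CPM in *ubp12/13*.

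**Figure D4:**
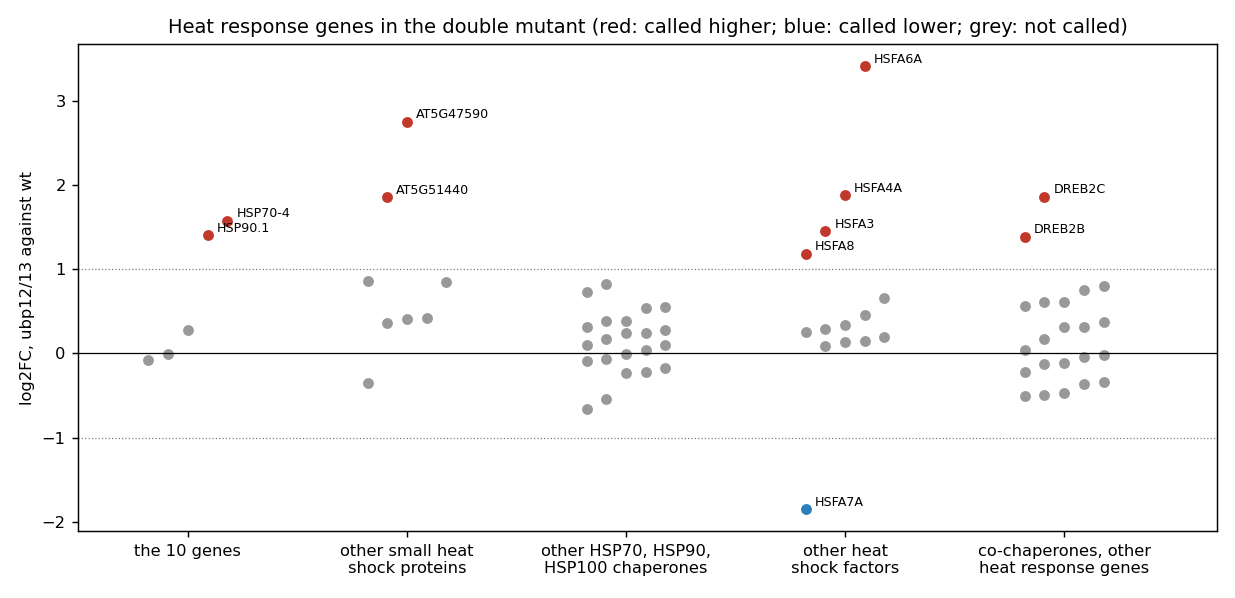
log2FC of *ubp12/13* against wt (vertical axis) for the tested genes of the 10 described and of 4 further lists of the heat response. Red points were called higher, blue points lower and grey points were not called; dotted lines are the fold-change minimum. In each list but that of the other HSP70, HSP90 and HSP100 chaperones at least 2 genes were called higher, and *HSFA7A* was called lower.

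As a description, the genes most like the mean of the 10 genes were sought by Pearson r over the 12 libraries among 18207 genes. *ARF4*, an auxin response factor gene, was first (r = 0.960), followed by *VSR7* (0.924), *AT5G14850* (0.915), *CML41* (0.913) and *GSTU4* (0.913). Of these, *CML41* was higher in *ubp12/13* (log2FC 1.93, adjusted p = 0.00340). After subtracting the genotype means *AT1G30600* was first (0.932) and *ARF4* was the fifth (0.900), the one gene among the first 10 of both orders. The mean weighs the genes near 0 counts as much as *HSP70-4*, and libraries share their depth.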

How the data were processed

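The authors trimmed 50-bp single-end reads with cutadapt 1.18, mapped them to TAIR10 with TopHat2, kept reads of mapping quality over 30 and deposited raw counts per gene made with HTSeq 0.11.1; the strand setting is not given in the sources used here. The deposited peak list holds merged positions of H2Aub1 increase found in both of 2 replicates, beside a score column of 1 throughout, which was not used.

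Nuclear genes above 1 CPM in 2 or more libraries of a fit entered the quasi-likelihood test of edgeR 4.0.16 (R 4.3.3) on TMM-scaled counts, and p-values were adjusted by Benjamini-Hochberg over all genes tested. Comparisons between genotypes used their 6 libraries and the interaction all 12. Calls needed an adjusted p under 0.05 and a log2FC of 1 or more in size. Named are all 10 genes, up to 6 called genes per list and comparison by absolute log2FC, and the 10 genes most like the mean in log2 CPM with a prior count of 2. The genes, lists and rules were chosen with earlier results of these data known. Alternatives were RLE factors, library totals, DESeq2 1.42.0, other filters, thinning, a common fit, a replicate block and each library left out. The fits were tested on simulated data. Replicate pairs differed beyond sampling noise, and of the 50-base words in the exons at least 99.8% were unique for each of the 10 genes. The authors state biological replicates. Counting intervals and floors cover counting error only.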

Additional observations from a re-analysis of the deposited data

Results flagged for a closer look

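The response of the genes below to the loss of UBP12 differed by whether *UBP13* was mutated as well, in a test of that difference itself (the interaction over 12 libraries in edgeR, with the thresholds of the other calls). Among the 10 genes the term was 2.60 for *HSP70-4*, 2.49 for *HSP90.1* and 2.74 for *HSFA2*. Those of *HSP70-4* and *HSP90.1* stayed called in all 21 alternatives, between 2.34 and 2.86 and between 2.37 and 2.70. That of *HSFA2* rests on 89 counts, and the gene passed the filter through wt and *ubp12/13* libraries alone, the groups with a plus sign in the term. It lost the call in 9 of 20 alternatives, each of these with 1 library left out. Over the 20 its adjusted p in the interaction test lay between 0.0145 and 0.0992.

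Of the further heat response genes, the term was 2.68 for *AT5G51440* and 1.82 for *AT2G29500*, both small heat shock proteins, and 1.36 for *HSFA4A*. It was 1.54 for *AT3G09440*, 1.24 for *HSC70-2* and 1.00 for *BIP1*, all HSP70 genes, and 1.35 for *HSP90.3*. It was 1.87 for *DREB2A* and 1.31 for *ATJ2*, a J-domain co-chaperone of HSP70. The call of *AT2G29500* was lost without wt replicate 1 (1.57), wt replicate 2 (1.80), *ubp12* replicate 1 (1.45) or *ubp13* replicate 3 (1.63). That of *BIP1* was lost without wt replicate 1 (0.69), *ubp12* replicate 3 (0.94), *ubp13* replicate 2 (0.92) or *ubp12/13* replicate 1 (0.97), and that of *HSC70-2* without wt replicate 1 (1.01). All 12 terms, those called and with *HSFA2* among them, were positive, where of all genes tested 589 had a positive and 571 a negative called term. Calls of the further lists were 1 of 14 tested heat shock factors and 2 of 8 small heat shock proteins. They were 4 of 22 other HSP70, HSP90 and HSP100 chaperones and 2 of 22 co-chaperones and other heat response genes, against 3.23% of all genes. *HSC70-2* was no higher in *ubp12/13* (mean 8.83 CPM) than in wt (9.08), and lower in *ubp12* (6.14) and *ubp13* (5.48). The other genes above had higher means in *ubp12/13* than in wt, hardly so *HSFA2* (0.971 against 0.956 CPM). *LHCB1.3*, a leaf marker, had a called term of -1.13; its part in these values was not tested.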

How the results depend on the processing

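The number of the 10 genes called in each comparison, or overlapped by a peak, stayed within 1.5 times its value in all 103 alternatives. With *HSFA2* counted, calls were 0 in both single mutants, 2 in *ubp12/13* against wt, 2 or 3 against each single mutant and 2 to 4 in the interaction. Peaks overlapped 2 or 3 genes. Of 1051 values of single genes under an alternative, 992 kept direction and call, 40 lost a call, 4 gained one and 15 turned sign, all of the latter uncalled values near 0. *HSFA2* in *ubp12/13* against wt turned to 0.15 with library totals, 0.00 with DESeq2 and without a filter, 0.01 with the replicate block and 0.05 after thinning, and ranged from -0.25 to 0.32 with 1 library left out. *HSP18.2* turned to 0.08 (against wt) and 0.00 (against *ubp13*) with library totals. With 1 library left out it ranged from -0.23 to 0.06 against wt and from -0.41 to 0.02 against *ubp13*, and from -0.10 to 0.32 in *ubp13* against wt. The deviations of same-numbered replicates had correlations of -0.165 to 0.292 over 18 pairs, 8 of them over 0.1. All 3 pairs of *ubp12* with *ubp13* were over 0.1 (0.102 to 0.215), as were 2 of 3 of *ubp12/13* with each single mutant. No comparison made here had all pairs over 0.1, so the numbers were not taken to pair libraries. In *ubp12/13* against *ubp12* and against *ubp13*, 5 of 6 libraries correlated best with the library of their own number, against 0 of 6 in the double mutant against wt. The replicate block gave 1701 calls in *ubp12/13* against wt, where the fit without it gave 1784, and 0, 0, 2, 3, 2 and 3 calls among the 10 genes in the order of the 6 tests; it ended the call of *BIP1* in the interaction (0.98). Library totals in place of TMM moved the median log2FC of all genes to 0.15 and raised the share of higher calls from 59.6% to 71.6%, and *HSP90.1* (1.56) and *HSP70-4* (1.73) stayed called. Among named genes, thinning ended the calls of *AT2G29500* against *ubp12* and in the interaction and of *HSFA8* against *ubp13* (0.90). *HSP101* gained a call against *ubp13* without a fold-change minimum and in the interaction with library totals (1.01). The causes were not tested. At these depths, 5 of the 10 genes had too few counts to pass the filter.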
